A study of Mus musculus with 14 samples.

Results

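The mouse mitochondrial genome was read through the 37 genes whose symbols begin with mt- in the GENCODE M21 annotation: 13 protein-coding genes, 2 ribosomal RNA (rRNA) genes and 22 transfer RNA (tRNA) genes. All 37 were present among the 55536 Ensembl genes of the count table, and all 37 were among the 38070 genes with enough counts to be tested. The libraries came from the hippocampus of mice aged 10 months, 1 library per mouse, and fell into 4 groups: MRL (n = 4), MRL-IRAK4-KD (n = 4), C57BL6/J (n = 3) and IRAK4-KD (n = 3). MRL stands for B6.MRL-Faslpr/J mice, a lupus-prone strain that carries the lpr mutation of the death receptor gene Fas. MRL-IRAK4-KD mice are MRL mice crossed to a strain with a kinase-dead form of IRAK4, the kinase that relays signals from Toll-like and interleukin-1 receptors, and IRAK4-KD mice carry the kinase-dead form with no lpr mutation by their label. All strains are on the C57BL/6 background, so the lupus-prone mice are not the MRL/lpr inbred strain, and the mutations act in every cell. The labels give no sex, litter or cage, so the spread within a group is the spread between these mice and their libraries.

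The mitochondrial genome is a small circle present in many copies per cell and inherited from the mother. Both strands are transcribed as long precursors that cover almost the whole circle, and enzymes release the messenger and ribosomal RNAs largely by cutting out the tRNAs that lie between them. The proteins are all subunits of the respiratory chain and the ATP synthase, which neurons of the hippocampus rely on heavily, and the rRNAs and tRNAs serve the ribosomes inside the organelle. Of the 37 genes, 28 were annotated on the plus strand and 9 on the minus strand. The minus strand carried 8 tRNA genes and mt-Nd6, the only protein-coding gene read from it.

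The results turned on a few tRNA genes, and the sequences of 5 of them are shown because the results rest on them: mt-Tg and mt-Tr were called lower in IRAK4-KD than in C57BL6/J mice, mt-Ti and mt-Tq had the opposite sign without passing the threshold, and mt-Tf was the member called between the lupus-prone groups. They are written 5′ to 3′ as the transcript sequences of GENCODE M21 give them (build mm10), with the anticodon, the 3 bases that pair with the codon, in capitals. mt-Tg, the glycine tRNA, lies directly between the genes of cytochrome oxidase subunit 3 (mt-Co3) and NADH dehydrogenase subunit 3 (mt-Nd3), and mt-Tr, the arginine tRNA, lies between mt-Nd3 and mt-Nd4l. mt-Ti (isoleucine) and mt-Tq (glutamine) sit side by side on opposite strands and overlap by 3 bases. mt-Tf (phenylalanine) is the first gene of the reference numbering, ahead of the small rRNA.
mt-Tg, chrM:9391-9458, plus strand: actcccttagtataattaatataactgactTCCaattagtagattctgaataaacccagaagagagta
mt-Tr, chrM:9808-9875, plus strand: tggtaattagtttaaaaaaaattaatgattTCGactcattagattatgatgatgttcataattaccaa
mt-Ti, chrM:3706-3774, plus strand: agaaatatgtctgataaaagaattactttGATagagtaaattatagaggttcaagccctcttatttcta
mt-Tq, chrM:3772-3842, minus strand: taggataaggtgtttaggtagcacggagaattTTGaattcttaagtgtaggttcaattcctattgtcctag
mt-Tf, chrM:1-68, plus strand: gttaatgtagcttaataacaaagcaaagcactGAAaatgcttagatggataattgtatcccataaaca

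Libraries held between 279723718 and 571925600 counts on Ensembl genes. The least counted mitochondrial gene on average, mt-Tf, had between 341 and 1723 counts per library, and the lowest single count was 299, for mt-Tg. Values below are CPM, a gene's counts scaled to a common library total with TMM factors, unless a share of counts is named. A pair of libraries needs to be known before the results. MRL-IRAK4-KD replicate 4 stood apart: it was the highest or lowest of its group for 36 of the 37 genes, its library concentration was 13.48 nM against 23.49 to 27.55 nM in the others, and it gave 1.40 counts per read against 1.80 to 2.08. Its summed level of 8 RNAs that stay in the nucleus was 18141 CPM against 6688 to 13603 CPM in the other libraries, and its summed choroid plexus markers came to 7966 CPM against 76.8 to 1939 CPM. The library labelled IRAK4-KD replicate 3 had 0 counts of the full-length Fas transcript, as in all 8 libraries of both lpr groups, where the other IRAK4-KD libraries and those of C57BL6/J had 345 to 584. Markers of hippocampal neurons were present in every library, with summed levels between 5191 and 7037 CPM for 12 genes.

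Mitochondrial genes took between 9.28% and 12.8% of all counts. In MRL libraries the 37 genes together held 10.6%, 12.8%, 11.03% and 12.2% of the counts, and in MRL-IRAK4-KD libraries 11.05%, 10.5%, 10.2% and 9.75%. C57BL6/J libraries held 10.6%, 11.1% and 10.2%, and IRAK4-KD libraries 9.28%, 10.5% and 9.49%. Every MRL library lay above every IRAK4-KD library, and the other pairs of groups overlapped. The 13 protein-coding genes made up most of it, at a mean share of 10.2% ± 0.801 (SD, n = 4) among MRL mice. The same share was 8.93% ± 0.619 (SD, n = 4) for MRL-IRAK4-KD, 9.08% ± 0.482 (SD, n = 3) for C57BL6/J and 8.29% ± 0.554 (SD, n = 3) for IRAK4-KD. The rRNAs, which carry short poly(A) tails and are therefore captured in part by a poly(A) selection, held between 1.11% and 1.55%, and the tRNA genes between 0.0494% and 0.0838%. In bulk tissue, fewer cells of a type and less RNA per cell cannot be told apart, and a share of counts also moves with every other RNA in the library.

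**Figure D1:**
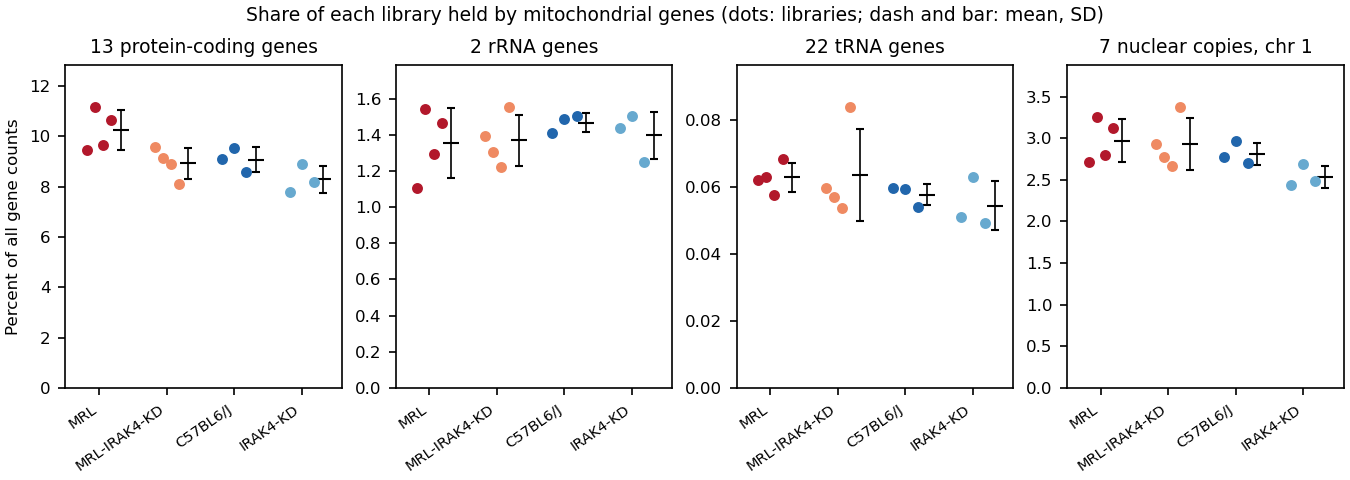
Share of all Ensembl gene counts, in percent on a linear axis from 0, held by the 13 protein-coding, 2 rRNA and 22 tRNA genes and by 7 nuclear copies on chromosome 1, with 1 dot per library and the group mean and SD as dash and bar. MRL libraries lie between 9.48% and 11.2% for the protein-coding genes, and MRL-IRAK4-KD replicate 4 is the highest library for tRNA genes at 0.0838%.

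Ratios between the classes do not depend on how a library is scaled. MRL libraries had 11.7, 13.8, 13.4 and 13.8 rRNA counts per 100 protein-coding counts, all below the 15.5, 15.6 and 17.5 of C57BL6/J. MRL-IRAK4-KD libraries had 14.6, 14.3, 13.7 and 19.1, and IRAK4-KD libraries 18.5, 16.9 and 15.3. MRL did not overlap with C57BL6/J or IRAK4-KD in this ratio, and its upper end met the lower end of MRL-IRAK4-KD. The minus-strand mRNA mt-Nd6, measured per 100 counts of the plus-strand mRNAs, came to 2.92, 3.11, 3.196 and 3.204 in MRL and to 3.47, 3.62, 3.56 and 6.08 in MRL-IRAK4-KD. All 4 MRL libraries were below all 4 MRL-IRAK4-KD libraries, with or without replicate 4. C57BL6/J libraries spanned 2.74 to 3.56 in the same ratio and overlapped with MRL and with both kinase-dead groups. IRAK4-KD libraries, at 3.36 to 3.59, were also above all 4 MRL libraries. These ratios are descriptions and were not tested.

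Among the protein-coding genes, levels per kilobase of gene spanned nearly an order of magnitude. mt-Co1, the catalytic subunit of cytochrome oxidase, was the highest, at a mean of 16450 CPM per kilobase over the 14 libraries. It was followed by mt-Atp6 (10583), a subunit of the proton channel of ATP synthase, and mt-Cytb (10298), the cytochrome b of complex III. The NADH dehydrogenase subunits of complex I ran from mt-Nd1 (8841), mt-Nd4 (6754) and mt-Nd2 (6024) down to mt-Nd5 (3334), mt-Nd4l (2419) and mt-Nd3 (2136), the lowest of the class. The remaining members lay between these, with mt-Co2 at 8450, mt-Co3 at 7472, mt-Atp8 at 6882 and mt-Nd6 at 5948 CPM per kilobase. Counts on nuclear copies, described below, are not in these levels. Copies on chromosome 1 held a median of 95.3% of the counts of mt-Nd3, 98.9% for mt-Nd4l and 100% for mt-Atp6. For mt-Co1 the median was 20.2%. Whether the highest and lowest places of the class depend on reads assigned to copies was not tested. The small and large rRNAs, mt-Rnr1 and mt-Rnr2, had 5683 and 5368 CPM per kilobase. Most of the long genes varied little between libraries, and the highest library of mt-Nd4 exceeded the lowest by only 1.42-fold. mt-Atp8 and mt-Nd4l were the exceptions at 5.87-fold and 4.13-fold, through MRL-IRAK4-KD replicate 4 as their lowest library.

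The tRNA genes covered a wider span. mt-Te (glutamate) and mt-Ts1, a serine tRNA, led with 2217 and 2184 CPM per kilobase, near the level of mt-Nd3, and mt-Tf was lowest with 30.3. Both mt-Te and mt-Ts1 lie on the minus strand opposite or next to longer RNAs, and mt-Ts1 overlaps the end of mt-Co1 by 3 bases. mt-Tc, mt-Tn and mt-Tl1 followed with 563, 552 and 548 CPM per kilobase, and mt-Ty and mt-Ta with 370 and 332. mt-Tm, mt-Ti, mt-Tq, mt-Tp and mt-Tw lay between 250 and 166 CPM per kilobase, and mt-Ts2, mt-Tl2, mt-Th, mt-Tg, mt-Tt and mt-Tr between 148 and 95.5. mt-Tk, mt-Td and mt-Tv had 63.8, 41.9 and 41.8. Mature tRNAs carry no poly(A) tail and are short, so counts on these genes in a poly(A) library also come from precursors and from neighbouring RNAs that extend over them, and the share of each was not tested. Whether counting used the strand is not given in the sources used here, so reads from genes on opposite strands that overlap cannot be told apart.

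Parts of the mitochondrial genome also exist as copies in the nuclear genome, and these took reads. On chromosome 1, 7 unprocessed pseudogenes in a row (24611535 to 24616197 of mm10, minus strand) held between 2.44% and 3.37% of all counts. The 5 copies that span a whole gene (Gm28661 of mt-Co2, Gm10925 of mt-Atp6, Gm28437 of mt-Co3, Gm28438 of mt-Nd3 and Gm10222 of mt-Nd4l) shared at least 97.6% of the gene's 100-base windows, and each held between 92.5% and 111% as many counts as the gene itself. Gm29216, a partial copy of mt-Co1, held 18.3% to 48.9%, and Gm28439, a partial copy of mt-Nd4, held 14.8% to 34.7%. Another 3 copies on chromosome 2 (Gm13339, Gm13340 and Gm13341) held at most 3.23% of the counts of their member. Within the windows that these 7 protein-coding genes share with their copies, reads of gene and copy cannot be told apart. Gm29216 shared 26.3% of the windows of mt-Co1, and Gm28439 shared 60.8% of those of mt-Nd4. Whether shared reads were divided between gene and copy or counted at both was not tested. With the chromosome 1 copies added, the mitochondrial total was between 11.7% and 16.02% of counts. None of the 22 tRNA genes was found whole in any other annotated transcript, 0 of 22, and the bases of the chromosome 1 row where mt-Tg and mt-Tr would lie are gaps of 69 and 74 bases with no annotated gene. The search covered annotated transcripts only. It could not show whether these gaps, other unannotated sequence or the predicted tRNA rows of the count table hold copies of tRNA genes.

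IRAK4-KD and C57BL6/J mice differ by label in the kinase-dead mutation, without the lpr background, and their comparison gave the largest differences of all. Strain, breeding line and genotype cannot be told apart between these groups. mt-Tg counts were nearly absent from IRAK4-KD libraries. Its levels were 0.741, 0.821 and 0.746 CPM in the 3 IRAK4-KD libraries (299, 328 and 414 counts) and 11.9, 9.49 and 12.5 CPM in C57BL6/J. MRL libraries had 14.3, 10.4, 8.33 and 14.6 CPM, and MRL-IRAK4-KD libraries 13.5, 8.91, 7.57 and 13.7 CPM. Every IRAK4-KD library lay far below every other library, including the MRL-IRAK4-KD libraries that carry the same kinase-dead label. By edgeR's quasi-likelihood test the level of mt-Tg was 14.7-fold lower in IRAK4-KD than in C57BL6/J (log2 fold change -3.88, SE 0.28, adjusted p = 1.46e-05). It was 14.2-fold higher in MRL-IRAK4-KD than in IRAK4-KD (log2 fold change 3.83, SE 0.27, edgeR adjusted p = 5.77e-05).

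mt-Tr, on the far side of mt-Nd3, went the same way to a lesser degree. It had 2.36, 2.34 and 2.31 CPM in IRAK4-KD and 10.7, 6.47 and 10.4 CPM in C57BL6/J libraries. The MRL libraries had 8.56, 4.48, 4.67 and 9.53 CPM and the MRL-IRAK4-KD libraries 8.04, 7.01, 5.03 and 8.98 CPM, so that again no library of another group came down to the IRAK4-KD values. The difference from C57BL6/J was -1.98 on the log2 scale (SE 0.31, edgeR adjusted p = 0.0173), and it was no longer called without C57BL6/J replicate 1 or 3 (adjusted p = 0.0906 and 0.0967) or without any IRAK4-KD library (0.122, 0.126 and 0.152 without replicates 1, 2 and 3). Against MRL-IRAK4-KD it was 1.64 (SE 0.30, edgeR adjusted p = 0.0839) and did not pass the threshold. The mt-Tg call held in each of the 25 alternatives of the analysis, with log2 values between -3.98 and -3.79.

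mt-Ti and mt-Tq had the opposite sign. mt-Ti had 28.9, 53.5 and 20.4 CPM in IRAK4-KD libraries against 10.6, 11.6 and 11.2 CPM in C57BL6/J, between 11.4 and 12.4 CPM in MRL, and 11.4, 8.65, 8.09 and 28.1 CPM in MRL-IRAK4-KD. mt-Tq had 17.96, 31.5 and 14.96 CPM in IRAK4-KD against 9.66, 10.3 and 10.2 CPM in C57BL6/J, 11.6 to 14.03 CPM in MRL, and 11.1, 8.78, 8.67 and 17.2 CPM in MRL-IRAK4-KD. In both genes the IRAK4-KD libraries were above all others except MRL-IRAK4-KD replicate 4, and they differed among themselves by more than any other group without that library. The log2 differences from C57BL6/J were 1.62 (SE 0.42) for mt-Ti and 1.09 (SE 0.27) for mt-Tq, which missed edgeR's threshold (adjusted p = 0.539 and 0.471). With MRL-IRAK4-KD replicate 4 left out of the fit, which shares its estimate of the spread over all groups, both were called (edgeR adjusted p = 0.0245 and 0.0493), and the calls over all genes went from 56 to 106. Of the 25 alternatives, 21 called neither, with adjusted p up to 1, and without IRAK4-KD replicate 2 the values were 1.16 for mt-Ti and 0.72 for mt-Tq.

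**Figure D2:**
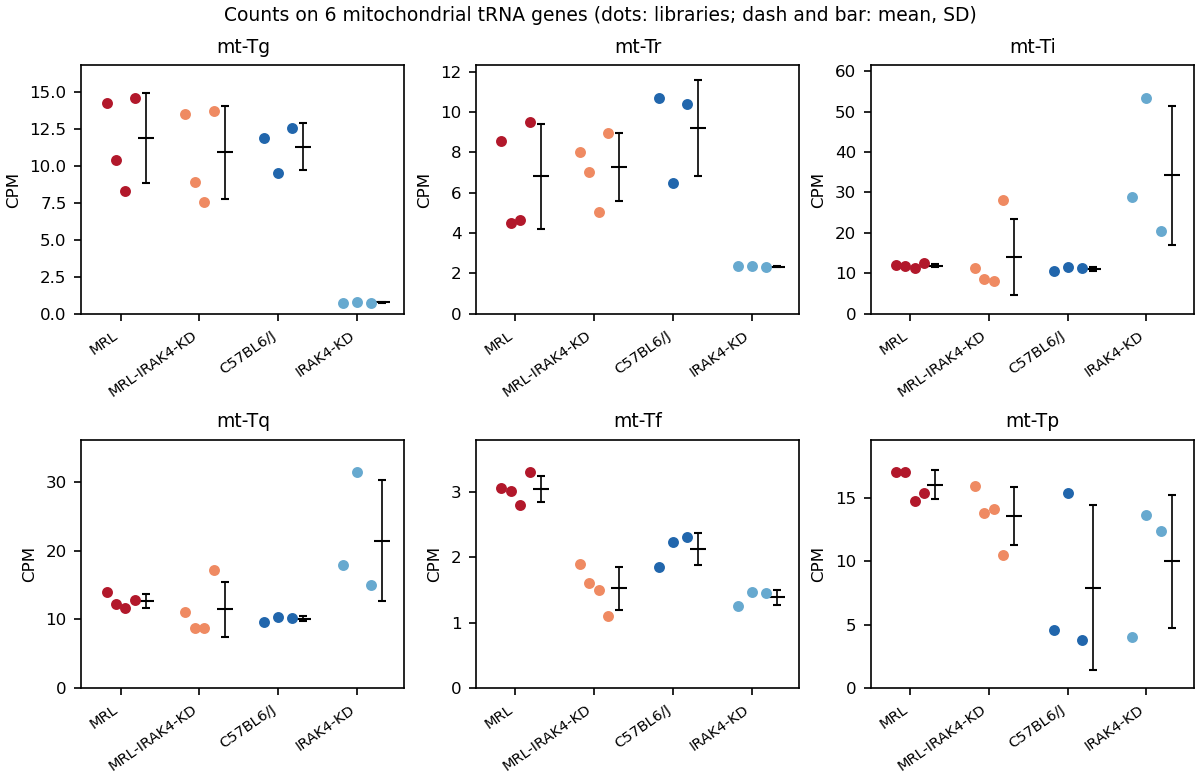
CPM on a linear axis from 0 for 6 tRNA genes, with 1 dot per library and the group mean and SD as dash and bar. The 3 IRAK4-KD libraries lie at 0.741 to 0.821 CPM for mt-Tg and 2.31 to 2.36 CPM for mt-Tr, below every other library, and at 20.4 to 53.5 CPM for mt-Ti, while mt-Tp splits within the C57BL6/J and IRAK4-KD groups.

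Over the 37 genes, 2 were called in IRAK4-KD against C57BL6/J, both lower, where 0.147% of all genes tested were called. At an unadjusted p below 0.05 there were 6 of 37, or 16.2%, against a background of 3.8%. All 6 were tRNA genes: beside those above, mt-Tf and mt-Tw had log2 fold changes of -0.62 (SE 0.20) and -0.32 (SE 0.14). No protein-coding or rRNA gene reached that level, and the median of the 13 protein-coding genes was -0.13 with 12 of 13 below 0, against -0.01 for all genes. That median was -0.07 without IRAK4-KD replicate 1 and -0.09 without C57BL6/J replicate 2. The genes flanking mt-Tg missed the threshold: mt-Co3 had a log2 fold change of -0.18 (SE 0.13) and mt-Nd3 of -0.42 (SE 0.24), and their copies Gm28437 and Gm28438 had -0.19 each. The IRAK4-KD libraries also held more summed RNA retained in the nucleus (13237 to 13603 CPM against 10639 to 12411 CPM, 2 of 8 genes at an unadjusted p below 0.05) and less summed endothelial marker RNA (100 to 118 CPM against 133 to 148 CPM). Striatum and thalamus markers summed to 131, 166 and 532 CPM in IRAK4-KD replicates 1, 2 and 3, so that replicate 3 alone was high, against 143 to 184 CPM in C57BL6/J, with 5 of 12 higher and 1 lower at an unadjusted p below 0.05. No gene of these lists was at 0 in all libraries, and the part of these RNAs in the tRNA values was not tested.

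Whether the kinase-dead and intact groups differed alike in the 2 backgrounds was tested as an interaction. It is IRAK4-KD minus C57BL6/J, less MRL-IRAK4-KD minus MRL, on the log2 scale. mt-Tg was the only gene called among all 38070, which is 0.00263% of those tested. Its interaction was -3.75 on the log2 scale (SE 0.34, edgeR adjusted p = 0.00127), the difference of -3.88 between IRAK4-KD and C57BL6/J set against an MRL level 0.12 (SE 0.21) above MRL-IRAK4-KD. The mt-Tg calls in the interaction, against C57BL6/J and against MRL-IRAK4-KD share the IRAK4-KD libraries, so they do not count as found independently. Mutation and breeding line cannot be told apart in this contrast. At an unadjusted p below 0.05 there were 4 of the 37 genes against a background of 4.17%: mt-Tg, mt-Tr (-2.07, SE 0.40, edgeR adjusted p = 0.367), mt-Tq (1.24, SE 0.36) and mt-Ti (1.38, SE 0.55).

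The library labelled IRAK4-KD replicate 3 is the one whose Fas transcripts go against its label. Its mt-Tg and mt-Tr values, 0.746 and 2.31 CPM, lay with those of the other IRAK4-KD libraries and not with those of the MRL-IRAK4-KD libraries, which were lpr by both label and transcripts. Without it, mt-Tg differed from C57BL6/J by -3.86 (SE 0.35, edgeR adjusted p = 0.000479) and had an interaction of -3.73 (SE 0.40, adjusted p = 0.0182).

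MRL-IRAK4-KD and IRAK4-KD mice share the kinase-dead label and differ in the lpr background. Here 1 of the 37 genes was called, mt-Tg, where 0.0735% of all genes were called, and 9 of 37, or 24.3%, had an unadjusted p below 0.05 against a background of 8.63%. These comprised the 4 tRNA genes of the interaction, among them mt-Ti at -1.29 (SE 0.38) and mt-Tq at -0.91 (SE 0.25), and 5 genes that were higher in MRL-IRAK4-KD. The latter were mt-Nd3 (0.67, SE 0.23), mt-Ts1 (0.70, SE 0.27), mt-Nd6 (0.39, SE 0.17), mt-Te (0.32, SE 0.14) and mt-Co3 (0.31, SE 0.12), all of which had their highest value in MRL-IRAK4-KD replicate 4. Without that library mt-Nd3 differed by 0.33 (SE 0.11), mt-Ts1 by 0.26 (SE 0.10) and mt-Nd6 by 0.22 (SE 0.12). The count of called members was then 3, where the calls over all genes went from 28 to 65, with mt-Ti at -1.87 (SE 0.27, edgeR adjusted p = 0.0159) and mt-Tq at -1.17 (SE 0.21, adjusted p = 0.0456). Without IRAK4-KD replicate 2, the highest library of both, mt-Ti was at -0.83 and mt-Tq at -0.54 (edgeR adjusted p = 0.723 each). The 9 genes at an unadjusted p below 0.05 became 5 without IRAK4-KD replicate 3 and 6 without IRAK4-KD replicate 1. They became 12 without IRAK4-KD replicate 2 or MRL-IRAK4-KD replicate 4, and 11 without MRL-IRAK4-KD replicate 2 or 3. The share over all genes at that level in these fits is not given here.

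**Figure D3:**
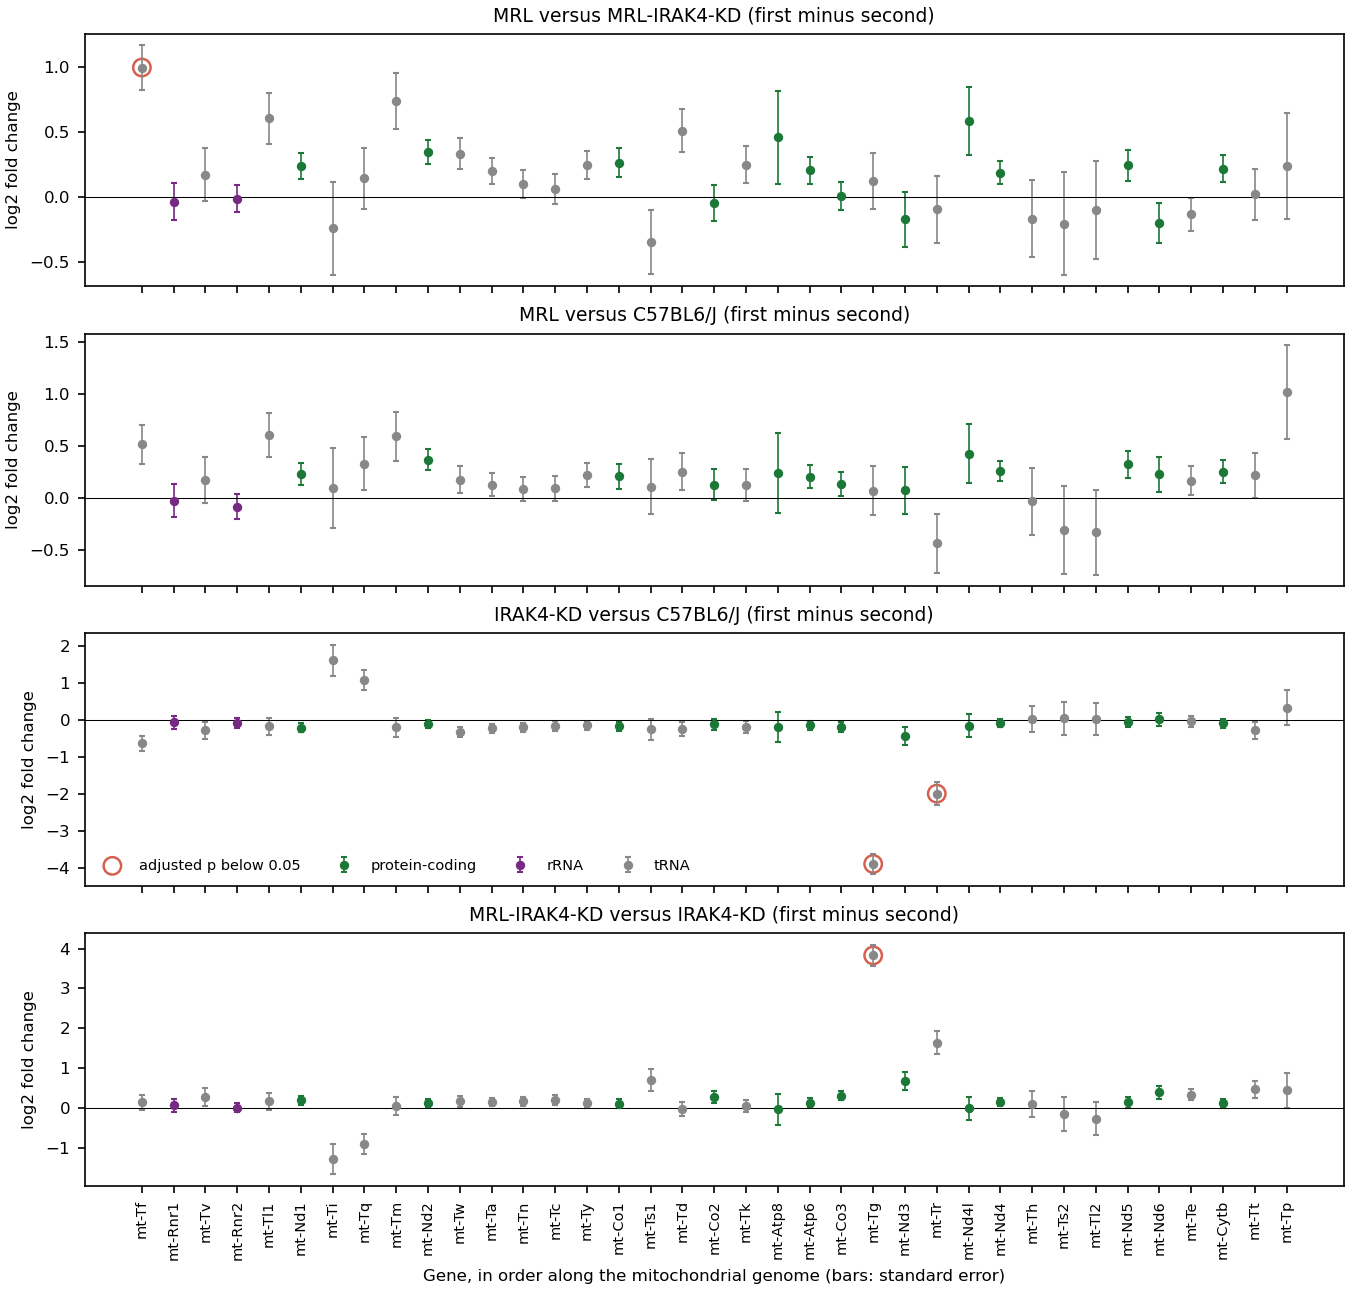
Log2 fold change and its standard error for all 37 genes in order along the genome, in 4 comparisons with the first group minus the second, coloured by class, with circles at an edgeR adjusted p below 0.05. The vertical scales differ between panels. mt-Tg stands at -3.88 in IRAK4-KD against C57BL6/J and at 3.83 in MRL-IRAK4-KD against IRAK4-KD, and its neighbours mt-Nd3 and mt-Co3 stand at -0.42 and -0.18 in the former and at 0.67 and 0.31 in the latter.

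Lupus-prone mice with intact IRAK4 (MRL) were then set against those with the kinase-dead form (MRL-IRAK4-KD), the main question of the study. Mitochondrial genes leaned upward in MRL by small amounts. mt-Tf had 3.06, 3.02, 2.81 and 3.31 CPM in MRL and 1.89, 1.61, 1.505 and 1.10 CPM in MRL-IRAK4-KD, with no overlap. It differed by 1.00 on the log2 scale (SE 0.17, edgeR adjusted p = 0.0486) and was the 1 gene of 37 called, where 0.0972% of all genes were called. This call was at the edge of the threshold: 17 of 26 alternatives lost it, with adjusted p up to 0.524 in a fit of these 8 libraries alone, while the log2 difference stayed between 0.87 and 1.12. Of the 14 fits without 1 library, only those without MRL-IRAK4-KD replicate 1 or 4 called it, at an adjusted p of 0.0445 and 0.0161. Among mice without the lpr label, mt-Tf had 1.85, 2.23 and 2.31 CPM in C57BL6/J and 1.25, 1.46 and 1.45 CPM in IRAK4-KD, so that in both backgrounds the kinase-dead group was the lower, and the interaction of 0.38 (SE 0.26) did not pass the threshold.

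Of the 37 genes, 10, or 27.0%, passed an unadjusted p of 0.05 in this comparison, against a background of 11.4%, and all 10 were higher in MRL. The 37 genes share precursors and are measured in the same libraries. Counts of members, here and in the other comparisons, are therefore not counts of independent results. The protein-coding genes among them were mt-Nd2 (0.35, SE 0.09), mt-Nd1 (0.24, SE 0.10) and mt-Nd4l (0.59, SE 0.26) of complex I and mt-Co1 (0.27, SE 0.11) of complex IV. The tRNA genes were mt-Tf, mt-Tm (0.74, SE 0.22), mt-Tl1 (0.61, SE 0.19), mt-Td (0.51, SE 0.16), mt-Tw (0.34, SE 0.12) and mt-Ty (0.25, SE 0.11). mt-Tl1, mt-Nd1, mt-Tm, mt-Nd2 and mt-Tw lie within a single stretch of the genome that also holds mt-Ti and mt-Tq, at -0.24 (SE 0.36) and 0.15 (SE 0.24). mt-Nd2 had 7550, 8105, 6760 and 7682 CPM in MRL against 6553, 5929, 5783 and 5353 CPM in MRL-IRAK4-KD. The groups did not overlap for 11 of the 37 genes, with MRL always higher, where 3.13% of all genes tested had every MRL library above every MRL-IRAK4-KD library. Such a separation of 4 from 4 libraries has by construction the smallest p, 0.0286, of a 2-sided exact permutation test. The rRNAs had log2 differences of -0.03 (mt-Rnr1) and -0.01 (mt-Rnr2), and of 0.12 and 0.03 without MRL-IRAK4-KD replicate 4.

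The median of the 13 protein-coding genes was 0.22 with 10 of 13 above 0, against 0.00 for all genes tested. Without MRL-IRAK4-KD replicate 4 the median was 0.17. mt-Nd3, mt-Nd6 and mt-Co2, the 3 genes below 0, were then at 0.17, -0.01 and 0.13, and mt-Nd4l at 0.33 (SE 0.10). mt-Tf was at 0.88 (SE 0.14, edgeR adjusted p = 0.0161). The count of genes at an unadjusted p below 0.05 was 11 without that library and 6 without MRL replicate 4. Blood and endothelial RNA moved with this comparison: the 9 blood markers summed to 85.7 to 374 CPM in MRL and 54.1 to 196 CPM in MRL-IRAK4-KD, with 6 of 9 higher at an unadjusted p below 0.05 (8 of 9 without MRL-IRAK4-KD replicate 4), and the 8 endothelial markers to 206 to 371 CPM and 140 to 188 CPM, with 6 of 8 higher (7 of 8 without it). Of the 8 microglia markers 1 was higher, and 5 without that library. Of the 12 hippocampal neuron markers 6 were lower in MRL at that level, with a median of -0.35. Without that library 3 were lower, with a median of -0.33. Their sums were 5730 to 6986 CPM in MRL and 6286 to 7037 CPM in MRL-IRAK4-KD. The background at that level was 11.4% of all genes with all libraries in the fit. No gene of these lists was at 0 in all libraries, and their part in the mitochondrial values was not tested.

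Between MRL and C57BL6/J mice no gene at all was called by edgeR, a background of 0%, and so 0 of the 37. DESeq2 called 202 of 27370 genes, among them 1 of the 37, mt-Nd2, and limma-voom called 38 of 38070 and 0 of the 37. At an unadjusted p below 0.05 there were 9, or 24.3%, against a background of 5.55%, and all 9 were higher in MRL. They were mt-Nd2 (0.37, SE 0.10), mt-Nd5 (0.33, SE 0.13), mt-Nd4 (0.26, SE 0.10) and mt-Nd1 (0.23, SE 0.11) of complex I, mt-Cytb (0.25, SE 0.11), and the tRNA genes mt-Tl1 (0.60, SE 0.21), mt-Tm (0.60, SE 0.24), mt-Tf (0.52, SE 0.19) and mt-Tp (1.02, SE 0.45). mt-Nd2 had 5856, 6118 and 5507 CPM in C57BL6/J, below every MRL library. All 13 protein-coding genes were above 0 with a median of 0.23, and the groups did not overlap for 13 of the 37 genes, with MRL always higher, against a background of 4.47% of all genes. The count of 9 fell to 2 without C57BL6/J replicate 1, to 3 without C57BL6/J replicate 3 and to 5 without MRL replicate 2. It fell to 4 with scaling by library size alone. It rose to 12 without C57BL6/J replicate 2 or without MRL-IRAK4-KD replicate 4, and to 13 with a replicate block. The share over all genes at that level in these fits is not given here. Both comparisons of MRL share the 4 MRL libraries, so mt-Nd2, mt-Nd1, mt-Tl1, mt-Tm and mt-Tf, which appear in both, do not count as found independently. Blood and endothelial markers were higher in MRL here too (8 of 9 and 6 of 8 at an unadjusted p below 0.05). The 8 microglia markers summed to 372 to 480 CPM in MRL and 314 to 334 CPM in C57BL6/J, with 5 of 8 higher. The 8 oligodendrocyte markers summed to 3961 to 5934 CPM and 3282 to 4305 CPM, with 4 of 8 higher. The part of these RNAs in the mitochondrial values was not tested.

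Nuclear genes for the same machinery were read from lists chosen with earlier results of these data known. Of 24 genes for transcription and replication of mitochondrial DNA, 0 were called by edgeR in any of the 4 pairwise comparisons. At an unadjusted p below 0.05, 2 of the 24 were lower in MRL than in MRL-IRAK4-KD, below the background of 11.4% of all genes. They were Dguok (-0.34, SE 0.13), which supplies DNA precursors, and Ssbp1 (-0.20, SE 0.09), the single-strand DNA binding protein, with a list median of -0.01. In IRAK4-KD against C57BL6/J 1 of 24 was lower, near the background of 3.8% of all genes: Top1mt (-0.27, SE 0.12), the mitochondrial topoisomerase. Of 42 genes for processing and stability of mitochondrial RNA, which include the enzymes that cut out and modify the tRNAs, 0 differed at an unadjusted p below 0.05 in IRAK4-KD against C57BL6/J. In MRL 3 of the 42 were lower than in MRL-IRAK4-KD, again below the background of 11.4%. Of 11 regulators of mitochondrial biogenesis, Nrf1 (0.27, SE 0.10) was the 1 gene at that level in IRAK4-KD against C57BL6/J, where the background was 3.8%.

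Nuclear subunits of the respiratory chain had the opposite sign to the mitochondrial ones in MRL against MRL-IRAK4-KD. Of 36 nuclear complex I subunits, 22 were lower in MRL at an unadjusted p below 0.05 with a median of -0.44, and of 11 complex IV subunits 7 were lower with a median of -0.50, though none was called by edgeR. The background at that level was 11.4% of all genes. Of 9 complex III, 15 complex V and 4 complex II subunits, 2, 6 and 1 were lower. In MRL-IRAK4-KD against IRAK4-KD, 16 of 36 complex I and 7 of 11 complex IV subunits were higher at that level, against 8.63% of all genes. MRL-IRAK4-KD replicate 4 had 4668 CPM of summed complex I subunits, against 1959 to 2415 CPM in the MRL, C57BL6/J and IRAK4-KD libraries. Without it 3 of 36 complex I and 0 of 11 complex IV subunits were lower in MRL than in MRL-IRAK4-KD. The medians were -0.10 and -0.10, while the mitochondrial protein-coding median kept its sign at 0.17. Against IRAK4-KD, 5 of 36 and 2 of 11 were then higher in MRL-IRAK4-KD. The share over all genes in that fit is not given here.

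Several tRNA genes differed more within groups than between them. mt-Tp, the proline tRNA at the end of the numbering, had 4.60 and 3.77 CPM in C57BL6/J replicates 1 and 3 but 15.4 CPM in replicate 2, and 3.99 CPM in IRAK4-KD replicate 1 but 13.7 and 12.4 CPM in replicates 2 and 3. All MRL and MRL-IRAK4-KD libraries lay between 10.5 and 17.1 CPM, so the difference of mt-Tp between MRL and C57BL6/J rests on C57BL6/J replicates 1 and 3. The neighbouring genes mt-Th, mt-Ts2 and mt-Tl2 (histidine, serine and leucine) split the MRL group together: mt-Ts2 had 9.76 and 10.5 CPM in replicates 1 and 4 and 5.83 and 4.22 CPM in replicates 2 and 3. mt-Tr split MRL in the same way, with 8.56 and 9.53 CPM against 4.48 and 4.67 CPM. In C57BL6/J, replicate 2 was lower than replicates 1 and 3 for mt-Ts2 (5.44 against 11.3 and 11.3 CPM) and mt-Tr (6.47 against 10.7 and 10.4 CPM). Highest and lowest library of mt-Ts2 differed by 3.49-fold, and of mt-Tl2 and mt-Th by 3.07-fold and 3.04-fold. In all comparisons mt-Th, mt-Ts2 and mt-Tl2 stayed above an unadjusted p of 0.05. No label describes a batch, so these splits cannot be set against one.

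MRL-IRAK4-KD replicate 4 differed from the other 3 libraries of its group in both directions. mt-Atp8 was at 303 CPM against 1403 to 1637 CPM and mt-Nd4l at 240 CPM against 697 to 771 CPM, the lowest of all 14 libraries, while their neighbours mt-Atp6 and mt-Nd4 were at 0.865 and 0.921 of the mean of the other 3. mt-Nd3 was at 1409 CPM against 597 to 783 CPM, mt-Nd6 at 4818 CPM against 3065 to 3310 CPM and mt-Ts1 at 336 CPM against 133 to 149 CPM, each the highest of all libraries. Of the 37 genes, 11 were higher and 8 lower in it than in all 13 other libraries. The copy Gm10222 followed mt-Nd4l, since it held 95.8% to 102% as many counts in every library.

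**Figure D4:**
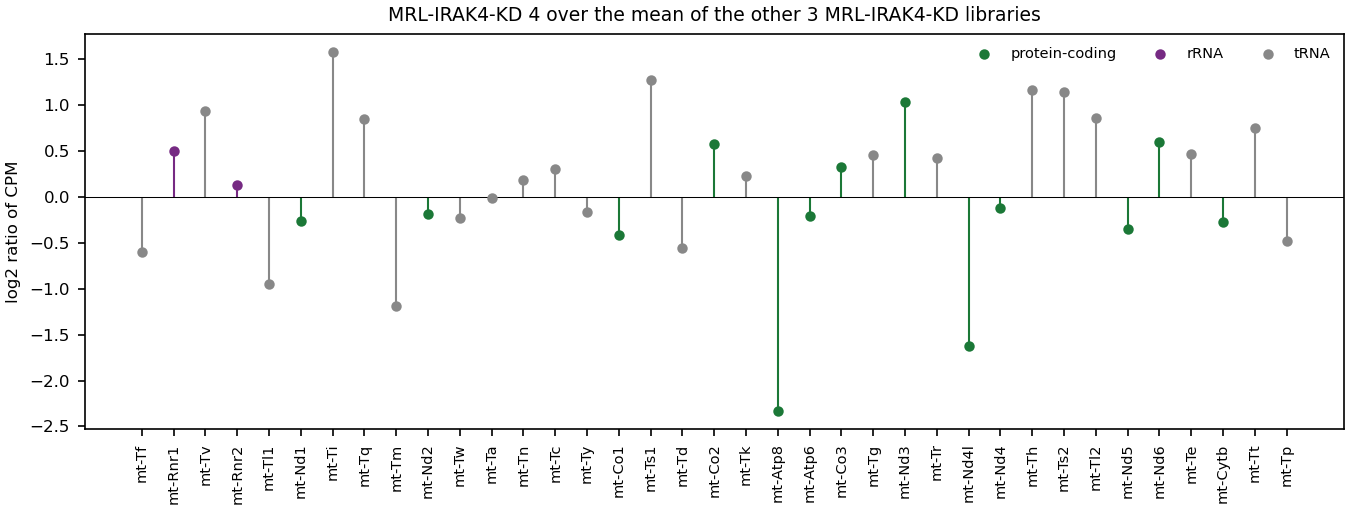
Log2 ratio of CPM in MRL-IRAK4-KD replicate 4 over the mean of the other 3 MRL-IRAK4-KD libraries, for the 37 genes in order along the genome, coloured by class. mt-Atp8 and mt-Nd4l lie lowest at -2.33 and -1.62, and mt-Ti, mt-Ts1 and mt-Nd3 lie high at 1.58, 1.28 and 1.03.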

How the data were processed

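Poly(A) RNA of 14 hippocampi was sequenced. The authors deposited raw counts, for genes in one table and for transcripts in another. The submitters' processing notes name HISAT2 2.1.0, SAMtools 1.9, StringTie 2.1.0 and mm10, the labels name a KAPA HyperPrep mRNA kit, and the paper's methods another kit. By the paper's methods counts were taken from the alignments with StringTie; the strand setting and the handling of reads with several matches are not given in the sources used here. Counts came to 1.40 to 2.08 per read listed, so they are not independent molecules. The p-values measure only the spread between these libraries. The count table held 81881 rows: 55536 Ensembl genes, 97 spike-ins with 0 counts and 26248 predicted tRNA rows (0.0254% to 0.188% of counts), of which only Ensembl genes entered library sizes and tests. All 55536 identifiers matched GENCODE M21.

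A single model was fitted to genes that reached 10 counts over all libraries, with a term for each of the 4 groups, by edgeR 4.0.16 (robust quasi-likelihood, TMM factors 0.961 to 1.03) in R 4.3.3, with Benjamini-Hochberg adjustment across 38070 genes. SE is on the log2 scale. The tests were checked on simulated data. Exact permutation tests used log2(CPM + 0.1). Nuclear copies were annotated transcripts sharing 100-base windows with a member. All protein-coding, rRNA and tRNA genes are named by level, and, per comparison, members at an unadjusted p below 0.05. The members and gene lists were chosen with earlier results of these data known, and 4 listed genes had no match. Replicate numbers were not used to pair the libraries. Alternatives were other scalings and filters, DESeq2 1.42.0, limma-voom (limma 3.58.1), a replicate block, the transcript table, single libraries left out, and 2 chosen after seeing the data (copies added to members, both doubted libraries left out). Figures used matplotlib 3.10.9 in Python 3.11.15.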

Additional observations from a re-analysis of the deposited data

Results flagged for a closer look

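Of 92 groups of 4 libraries examined for a library far from the rest, 10 had one, and in each it was MRL-IRAK4-KD replicate 4. Chance alone flags about 1 in 20 groups, and the 10 are not independent since they come from the same library. It was high in mt-Tv (4.50 CPM), mt-Ti (28.1 CPM), mt-Ts1 (336 CPM), mt-Nd6 (4818 CPM) and mt-Tt (10.3 CPM), and low in mt-Nd4l (240 CPM) and mt-Nd5 (4919 CPM). It was also high in rRNA counts per 100 protein-coding counts (19.1), in mt-Nd6 per 100 counts of the plus-strand mRNAs (6.08) and in mt-Rnr1 per 100 counts of mt-Rnr2 (78.4, against 60.0 to 61.4 in the other 3). For mt-Tg, the difference between IRAK4-KD and C57BL6/J and that between MRL-IRAK4-KD and MRL were apart by -3.75 on the log2 scale in edgeR's test of the interaction. Strain, breeding line and genotype cannot be told apart in these groups.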

How the results depend on the processing

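No call or class median reported changed direction under any alternative. The mt-Tg calls and the medians of the 13 protein-coding genes (moves below 1 SD of the libraries) kept their side in each. In MRL against MRL-IRAK4-KD the count of called mitochondrial genes went from 1 to 0 with library size only, scaling without the mitochondrial genes, no filter and the 8 libraries alone (30, 36, 36 and 18 calls over all genes against 37). It went to 2 with DESeq2 (398 calls over all genes). With single libraries left out, including libraries of the other groups that only share the spread, it was between 0 and 1 (25 to 52 calls over all genes). DESeq2 gave 1 call in MRL against C57BL6/J, 4 in IRAK4-KD against C57BL6/J, 2 in MRL-IRAK4-KD against IRAK4-KD and 2 in the interaction, while its calls over all genes were 202, 159, 302 and 52 against edgeR's 0, 56, 28 and 1. limma-voom gave 4 in IRAK4-KD against C57BL6/J and 3 in MRL-IRAK4-KD against IRAK4-KD (145 and 275 over all genes). Leaving out single libraries gave 1 to 4 in IRAK4-KD against C57BL6/J, where the calls over all genes spanned 33 to 106. It gave 1 to 3 in MRL-IRAK4-KD against IRAK4-KD, where they spanned 11 to 65. The highest counts, 4 and 3, came without MRL-IRAK4-KD replicate 4, with 106 and 65 calls over all genes. Without MRL-IRAK4-KD replicate 4 and IRAK4-KD replicate 3 together, a choice made after seeing the data, there were 3 in MRL-IRAK4-KD against IRAK4-KD and 3 in the interaction. The calls over all genes were then 40 and 11. The causes were not tested. The 11 genes at the smallest exact p were 11 or 12 under other scalings and a pseudocount of 1. Exact tests with a library left out are not given here, and models and filters have no part in the exact test.

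Among libraries with the same replicate number, 4 of 19 pairs had a correlation over 0.1 in their deviations from the group mean (range -0.25 to 0.37). Pairs with unequal numbers were not set beside them, so this cannot show whether the numbers mark a shared litter, day or batch. The labels do not say, and the libraries were not treated as pairs. With the number as a replicate block, MRL against MRL-IRAK4-KD had 0 calls, with mt-Tf at 1.02 (edgeR adjusted p = 0.124), and the other counts of calls did not change. Depth limits little here, as no mitochondrial gene had fewer than 299 counts in a library; the errors come from the spread between libraries, in which mouse and library preparation cannot be told apart.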
